A study of Homo sapiens with 2 samples.

Results

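The genes described here are 10 members of the T-box family of transcription factors, TBX1, TBX2, TBX3, TBX4, TBX5, TBX6, TBX15, TBX18, TBX20 and TBX21, among 20163 protein-coding genes of the annotation. A peak of open chromatin was assigned to one of them when it overlapped the gene body or lay at most 3 kb from the TSS, the transcription start site. This rule took 26 of 114060 peaks of the DMSO library and 77 of 161184 peaks of the MAK683 library, and no peak was assigned to 2 of the genes. The measured peak values played no role in the rule. Of these 10 genes, only TBX3 is named by the study among the Polycomb targets that are derepressed in this cell line, so its direction is not independent evidence.

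The assay was ATAC-seq, which uses the transposase Tn5 to insert adapters into open DNA. Both libraries came from G401, an established line of malignant rhabdoid tumor of the kidney that lacks SMARCB1, a SWI/SNF subunit. The DMSO group was a culture given the solvent for 3 days. The MAK683 group was a culture given the compound for 3 days, at 3 µM according to the series description. MAK683 binds EED, a subunit of Polycomb repressive complex 2 (PRC2), which methylates lysine 27 of histone H3. With 1 library per group there was no measure of how much cultures vary, so no p-value is given and every difference is between these libraries. The labels report that the cell line and the culture medium were the same in both groups.

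T-box factors bind DNA through a conserved domain and set the identity of mesoderm-derived tissues in the embryo, with TBX5, TBX20 and TBX18 acting in the heart, TBX4 and TBX5 in the limbs, and TBX6 in the mesoderm that forms the somites. In cells that do not use them, many developmental regulators of this kind are covered by histone H3 trimethylated at lysine 27 and kept silent by PRC2. TBX2 and TBX3 are repressors, and CDKN2A, which encodes a cell cycle inhibitor, is among the genes that they can silence.

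Peak height is given as tags, the number of extended reads over the summit, and as RPM, tags per 1000000 tags kept after filtering. The libraries held 16598348 such tags for DMSO and 18265284 for MAK683, and the lowest peak called had 6 tags in both. Where a promoter had no peak in one library, 0.361 RPM stood in for its height, the height of 6 tags in the shallower library, and the log2 ratio against this floor is a description. Intervals are 95% exact intervals of the tags, and they cover counting error only. Among the markers of the line, the SMARCB1 locus held no peak in either library, and the promoter of VIM, a mesenchymal gene, had 44 and 41 tags. Of the markers of other cell types, PTPRC, CD3E and ALB had no promoter peak in either library. The promoter of EPCAM had a low peak of 12 tags in DMSO and 11 tags in MAK683.

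The sequences under the summits are shown for the 4 loci with the largest rise in peak number (TBX3, TBX5, TBX18 and TBX20), and for TBX6, a promoter that was open in both libraries. Each is 200 bases of GRCh37 centred on a summit, on the strand of the gene, with every CpG in capitals because CpG-rich DNA is where Polycomb complexes are commonly found. The TBX3 stretch lies upstream of the TSS at chr12:115122288-115122487 (minus strand), that of TBX5 in an intron at chr12:114831420-114831619 (minus), and that of TBX20 in an intron at chr7:35289256-35289455 (minus). The TBX18 stretch is in an intron at chr6:85447620-85447819 (minus), and that of TBX6 lies just upstream of the TSS at chr16:30103291-30103490 (minus).
TBX3 (MAK683 peak of 45 tags): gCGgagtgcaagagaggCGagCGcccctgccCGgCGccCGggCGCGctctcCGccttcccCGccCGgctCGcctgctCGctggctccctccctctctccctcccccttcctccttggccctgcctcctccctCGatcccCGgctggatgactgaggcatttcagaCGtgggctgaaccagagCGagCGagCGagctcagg
TBX5 (MAK683 peak of 19 tags): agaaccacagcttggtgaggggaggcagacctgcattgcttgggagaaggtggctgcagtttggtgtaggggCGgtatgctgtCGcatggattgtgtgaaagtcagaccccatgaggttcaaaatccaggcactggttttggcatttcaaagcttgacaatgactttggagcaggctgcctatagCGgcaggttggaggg
TBX20 (MAK683 peak of 26 tags): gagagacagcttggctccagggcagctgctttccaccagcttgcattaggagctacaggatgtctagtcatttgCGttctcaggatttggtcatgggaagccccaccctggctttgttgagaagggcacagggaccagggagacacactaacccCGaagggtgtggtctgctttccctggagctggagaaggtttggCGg
TBX18 (MAK683 peak of 12 tags): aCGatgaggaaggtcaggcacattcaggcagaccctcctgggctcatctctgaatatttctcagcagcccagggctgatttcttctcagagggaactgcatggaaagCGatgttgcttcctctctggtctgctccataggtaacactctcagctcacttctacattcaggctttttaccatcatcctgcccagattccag
TBX6 (DMSO peak of 27 tags): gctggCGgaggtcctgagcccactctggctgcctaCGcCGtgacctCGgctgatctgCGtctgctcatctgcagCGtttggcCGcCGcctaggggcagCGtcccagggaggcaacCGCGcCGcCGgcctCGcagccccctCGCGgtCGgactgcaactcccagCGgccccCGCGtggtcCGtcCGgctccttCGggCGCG

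The summit window of TBX3 held 19 CpG, and that of TBX6 held 25. The intronic windows of TBX5, TBX20 and TBX18 held 3, 3 and 2. Of the windows shown, those at promoters were CpG-rich and those inside genes were not. Each came from the tallest peak whose window held no annotated UTR, so this contrast depends on the choice of windows. Other intronic MAK683 windows had a higher ratio of observed to expected CpG. It was 0.729 at TBX5, 2960 bp downstream of the TSS, and 0.553 at TBX18, 1829 bp downstream. The windows shown had 0.235 and 0.160. For TBX5 and TBX18 the windows shown are not those of the promoter peak, whose sequence is not printed.

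Promoters were compared first, taking the tallest peak that overlapped the 3 kb on either side of the TSS. In DMSO 6 of the 10 genes had such a peak, and in MAK683 all 10 did. Over all 20163 coding genes, 14660 had one in DMSO and 15875 in MAK683. The 4 promoters with a peak in MAK683 only were those of TBX4, TBX5, TBX18 and TBX20. Of 16247 coding genes that had one in either library, 9.77% had it in MAK683 only. Set against the floor, 3 of the 10 promoters (TBX5, TBX18 and TBX20) were at least 2-fold higher in MAK683, where 3.37% of all promoters were, and 0 were at least 2-fold lower, where 5.75% were. Counting changes of any size, 5 promoters were higher and 5 lower, while 21.5% of all promoters were higher in MAK683. The 2-fold counts depended on the settings: with a −log10 q of at least 5 TBX18 fell to 0.54, and with at least 10, where the floor is higher, none of the 3 was past 2-fold (TBX5 0.60, TBX20 0.66 and TBX18 -0.04). With a window of 1 kb TBX20 fell to 0.74, and TBX1 was past 2-fold lower at -1.20. The median log2 ratio of the 10 was -0.15, and that of all coding promoters was -0.42. Without TBX3 the median of the remaining 9 was -0.38. The 6 promoters with a peak in both libraries had a median of -0.54, beside -0.46 for all such promoters.

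TBX3, of the TBX2 subfamily, is a repressor needed for limb, mammary gland and heart development. Its gene (ENSG00000135111.16) lies at chr12:115108060-115121980 on the minus strand. Its promoter peak had 22 tags in DMSO, a height of 1.33 RPM (interval 0.831 to 2.01), and 45 tags in MAK683, a height of 2.46 RPM (1.80 to 3.30). The log2 ratio was 0.89 (0.13 to 1.70), which was 1.32 above the median of all promoters, and 95.7% of promoters had a lower ratio. It was the only promoter of the 10 whose counting interval lay above 0, and 0 of the 10 had an interval below 0. Of all coding promoters with a peak in both libraries, 0.819% had an interval above 0 and 16.9% below. At TBX3, the intervals of the 2 heights overlapped. The peak also widened, from 1011 bp to 3210 bp, and its summit lay 303 bp upstream of the TSS in DMSO and 408 bp upstream in MAK683. This MAK683 peak was among the 0.422% of MAK683 peaks with at least 45 tags. The wide MAK683 peak also reached the start of the antisense gene TBX3-AS1, which the DMSO peak did not.

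TBX5, its neighbour on the chromosome and a regulator of the heart and forelimb (ENSG00000089225.20, chr12:114791716-114846247, minus strand), had no promoter peak in DMSO. In MAK683 its promoter peak had 25 tags, a height of 1.37 RPM (0.886 to 2.02), over 2892 bp, with the summit 393 bp downstream of the TSS in annotated UTR. Against the floor the log2 ratio was 1.92. The peak ended short of the start of the antisense gene TBX5-AS1.

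TBX2, a repressor close to TBX3 in sequence (ENSG00000121068.14, chr17:59477204-59486827, plus strand), had 27 tags in DMSO and 20 in MAK683, heights of 1.63 and 1.09 RPM. The log2 ratio was -0.57 (-1.48 to 0.32), 0.15 lower than the median of all promoters in the log2 ratio and within counting error of no change. TBX4, a hindlimb and lung regulator (ENSG00000121075.11, chr17:59529765-59562471, plus strand), had no DMSO promoter peak and a MAK683 peak of 7 tags, 0.383 RPM, next to the floor. Within the TBX2 subfamily the MAK683 heights of TBX2 and TBX5 had overlapping intervals, and in DMSO TBX2 had a promoter peak and TBX5 did not.

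In the TBX1 subfamily, TBX18, a regulator of the sinus node, the epicardium and the ureter (ENSG00000112837.17, chr6:85397069-85474316, minus strand), had no DMSO promoter peak. Its tallest MAK683 promoter peak had 16 tags, 0.876 RPM (0.501 to 1.42), with the summit in an intron 1829 bp downstream of the TSS, and the log2 ratio against the floor was 1.28. TBX20, a regulator of heart chamber development (ENSG00000164532.11, chr7:35242042-35293711, minus strand), had no DMSO promoter peak either. Its MAK683 peak had 26 tags, 1.42 RPM (0.930 to 2.09), and a log2 ratio against the floor of 1.98. This peak only reached into the promoter window: its summit was 4355 bp downstream of the TSS, and with the summit required inside the window the log2 ratio was 1.18. A lower MAK683 peak of 11 tags lay 264 bp upstream of the TBX20 TSS.

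The other members of that subfamily went lower. TBX1, a regulator of the pharyngeal arches (ENSG00000184058.16, chr22:19744226-19771116, plus strand), had 25 tags in DMSO and 18 in MAK683, heights of 1.51 and 0.985 RPM and a log2 ratio of -0.61 (-1.57 to 0.32). Both summits lay more than 2 kb upstream of its TSS, at 2713 and 2711 bp. TBX15, a regulator of skeletal development (ENSG00000092607.15, chr1:119425669-119532179, minus strand), had 26 and 19 tags, 1.57 and 1.04 RPM, and a log2 ratio of -0.59 (-1.53 to 0.32). For both genes the interval included 0. The TBX1 value depended on the window: a window of 1 kb gave -1.20 (-2.39 to -0.11) on the log2 scale.

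TBX6, in a subfamily of its own among these genes (ENSG00000149922.12, chr16:30097114-30103245, minus strand), had 27 tags in DMSO and 21 in MAK683, heights of 1.63 and 1.15 RPM and a log2 ratio of -0.50 (-1.40 to 0.38). TBX21, which encodes T-bet, the regulator of type 1 helper T cells (ENSG00000073861.3, chr17:45810602-45823488, plus strand), had 13 and 11 tags, 0.783 and 0.602 RPM, and a log2 ratio of -0.38 (-1.68 to 0.90). The 5 promoters that were lower (TBX1, TBX2, TBX6, TBX15 and TBX21) lay between 0.19 below and 0.04 above the median change of all promoters on the log2 scale.

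**Figure D1:**
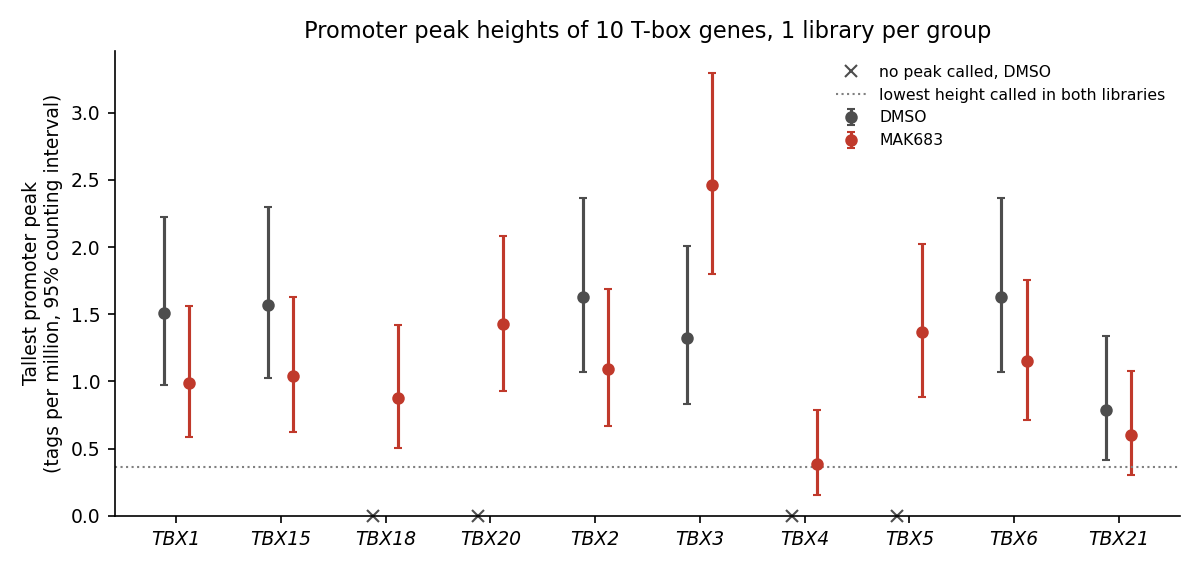
Height of the tallest promoter peak of each gene (y axis, RPM) in the DMSO library (grey) and the MAK683 library (red), with 95% exact counting intervals and 1 library per group. Crosses at 0 mark the 4 DMSO promoters without a called peak and the dotted line is the floor of 0.361 RPM; TBX3 stood highest in MAK683 at 2.46 RPM, and TBX1, TBX2, TBX6, TBX15 and TBX21 were lower in MAK683 with overlapping intervals.

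Whole loci were compared next, over 415.594 kb in all. The DMSO library had 26 peaks that covered 22108 bp, and the MAK683 library had 77 that covered 49433 bp, a ratio of peak numbers of 2.96. The same ratio over the genome was 1.41. The gain was unevenly spread over the genes. TBX3 went from 1 to 11 peaks, TBX5 from 0 to 13, TBX18 from 0 to 9 and TBX20 from 0 to 9. TBX1 went from 9 to 12, TBX15 from 2 to 6 and TBX2 from 2 to 5. TBX4, TBX6 and TBX21 had equal numbers in both libraries, 4, 5 and 3.

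TBX3, TBX5, TBX18 and TBX20 were grouped after these counts had been seen, so the sums below describe them and are no test. They had 1 peak in DMSO and 42 in MAK683, which covered 1011 bp and 31517 bp of 207.073 kb. Of the 42 MAK683 peaks, 41 overlapped no DMSO peak. The remaining 6 genes had 25 and 35 peaks, over 21097 bp and 17916 bp of 208.521 kb, so there the number of peaks was higher and the covered length lower in MAK683. Over all 10 genes, 52 of 77 MAK683 peaks (67.5%) overlapped no DMSO peak, where 56.8% of all MAK683 peaks did so. In the opposite direction, 7 of 26 DMSO peaks (26.9%) overlapped no MAK683 peak, beside 43.8% of all DMSO peaks.

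Most MAK683 peaks of the 10 loci were low. The median height of the 77 MAK683 peaks was 0.547 RPM, equal to the median of all MAK683 peaks. That of the 26 DMSO peaks was 0.843 RPM, beside 0.663 RPM for all DMSO peaks. With a lower limit of 1 RPM, chosen after the data had been seen, the 10 loci had 9 DMSO peaks and 10 MAK683 peaks. Over the genome that limit left 24987 DMSO peaks and 17893 MAK683 peaks. The 4 grouped genes had 1 and 6 such peaks, and the other 6 genes had 8 and 4. The 6 MAK683 peaks were those of TBX3, TBX5 and TBX20, and TBX18 had no peak this tall in either library. The sum over the other 6 genes turned direction.

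Within the TBX5 body the peaks were also broad. A MAK683 peak of 4156 bp had its summit 9375 bp downstream of the TSS, with 19 tags, and the adjoining one of 2473 bp, also with 19 tags, had its summit at 12429 bp and carries the sequence shown above. The 13 peaks together covered 14246 bp of the TBX5 locus, or 25.8% of it. At TBX3, 45.1% of the locus was covered in MAK683, and the tallest peak without a DMSO counterpart had 19 tags, in an intron 11867 bp downstream of the TSS. The tallest such peak of TBX20 was its 2899 bp peak of 26 tags, in an intron. TBX18 had no broad peak: its longest was 820 bp, with 12 tags, 26596 bp downstream of the TSS. Of all MAK683 peaks, 3.58% were at least 2000 bp long, beside 7.11% of all DMSO peaks.

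In the other loci the tallest peaks found in a single library were low or moderate. TBX1 had a DMSO peak of 16 tags without a counterpart, 19715 bp downstream of the TSS, and a MAK683 peak of 12 tags at 13148 bp, both in introns. TBX2 had a MAK683 peak of 10 tags without a counterpart in annotated UTR, 8795 bp downstream of the TSS. TBX4 had a DMSO peak of 11 tags at 18334 bp and a MAK683 peak of 9 tags at 28201 bp, TBX15 had 2 MAK683 peaks of 8 tags, TBX6 had 1 of 9 tags in a coding exon, and TBX21 had none.

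**Figure D2:**
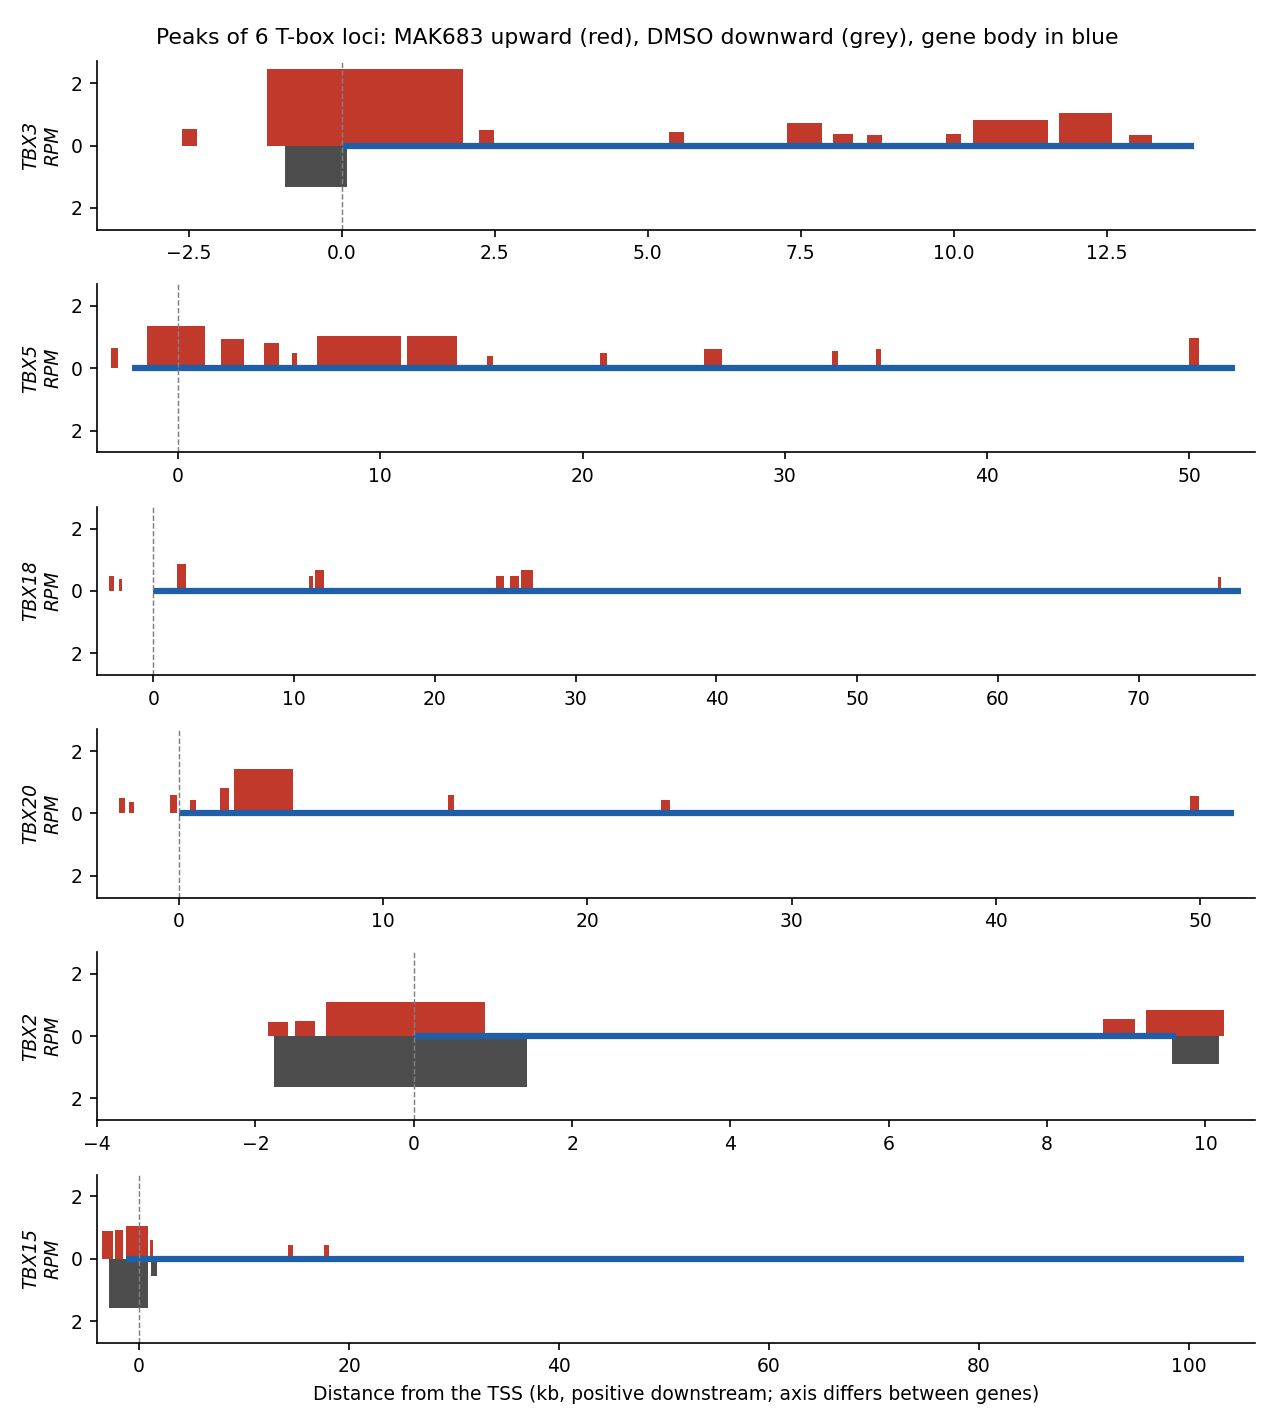
Peaks of 6 loci by distance from the TSS (x axis, kb, a different range for each gene), with the width of a bar showing the length of the peak and its height the RPM. MAK683 peaks point upward (red), DMSO peaks downward (grey), and the blue line is the gene body; TBX5, TBX18 and TBX20 have no grey bar, TBX3 has 1, and TBX2 and TBX15 have grey bars at the TSS that are taller than the red.

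Regions where both libraries had a peak were then compared by height. Overlapping peaks of the libraries were merged into 77 regions over the 10 loci, of which 18 had a peak in both, 7 in DMSO only and 52 in MAK683 only. The median log2 ratio of the 18 shared regions was -0.52, beside -0.33 over 57983 shared regions of the genome. MAK683 was higher in 3 of the 18 and lower in 15, beside 13784 higher and 44199 lower of the 57983 over the genome. The highest ratio was that of the TBX3 promoter. The lowest was -1.20 (-2.39 to -0.11), at a region of the TBX1 promoter window with 23 tags in DMSO, where the summit was 1439 bp downstream of the TSS, and 11 tags in MAK683. That interval lay below 0, at a region singled out as the lowest of the 18.

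For the genes with no DMSO peak, the background is the 3985 coding loci that had none. A MAK683 peak was present in 36.5% of these, and they were 7.22% of all coding loci. TBX5, TBX18 and TBX20 had at least 9 MAK683 peaks, a number reached after no DMSO peak by 155 coding loci. These were 3.89% of the loci with no DMSO peak and 0.769% of all coding loci, where the limit of 9 was chosen from these genes. By the difference in peak number between libraries, 4.29% of coding loci had at least that of TBX5, 5.53% that of TBX3 and 6.07% that of TBX18 and TBX20. These numbers grow with the length of a locus, and the 4 loci were not matched on it.

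The gain was not restricted to the genes. In the 500 kb on either side of a locus, TBX3 had 2 DMSO and 72 MAK683 peaks, TBX5 had 10 and 87, TBX20 had 15 and 74, and TBX18 had 8 and 43. TBX15 had 5 and 21. TBX2 had 26 and 27, TBX4 had 25 and 28, TBX21 had 100 and 83, TBX1 had 156 and 129 and TBX6 had 158 and 129. TBX3, TBX5, TBX18 and TBX20 thus lay in surroundings with few DMSO peaks and more MAK683 peaks, as did TBX15, and TBX1, TBX6 and TBX21 lay among many peaks of both libraries. The flanks of TBX3 and TBX5 overlap each other, as do those of TBX2 and TBX4, so sums over genes would count peaks more than once. Of 2712 tiles of 1 Mb with a peak, 5.60% had a difference between libraries at least as large as the flanks of TBX5, 7.15% as large as those of TBX3, 11.2% as large as those of TBX20 and 26.0% as large as those of TBX18.

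**Figure D3:**
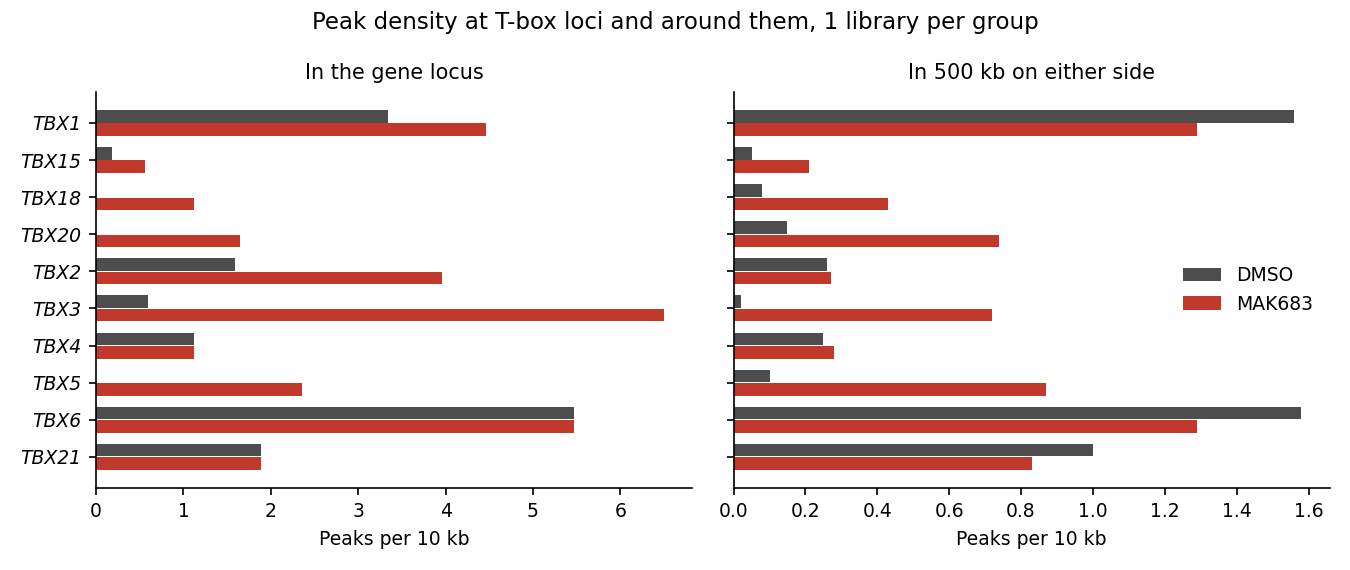
Peaks per 10 kb (x axes, both from 0 but of different range) in each gene locus, left, and in the 500 kb on either side, right, for DMSO (grey) and MAK683 (red), 1 library per group. TBX3, TBX5, TBX18 and TBX20 show more red than grey in both panels, and TBX1, TBX6 and TBX21 show slightly less red than grey in the right panel.

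TBX5 and TBX3 are neighbours on chromosome 12, and the 261.812 kb between them (chr12:114846248-115108059) went from 2 peaks in DMSO to 38 in MAK683, of which 37 overlapped no DMSO peak. The tallest of them was 1.42 RPM, beside 1.02 RPM in DMSO. Over chr12:114291716-115624980, which adds 500 kb on the outer side of each gene, the numbers were 10 and 99. On the outer side of TBX3, between 100 kb and 1 Mb upstream of its TSS neither library had a peak. TBX2 and TBX4, the corresponding pair on chromosome 17, had 3 DMSO and 5 MAK683 peaks in the 42.937 kb between them.

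**Figure D4:**
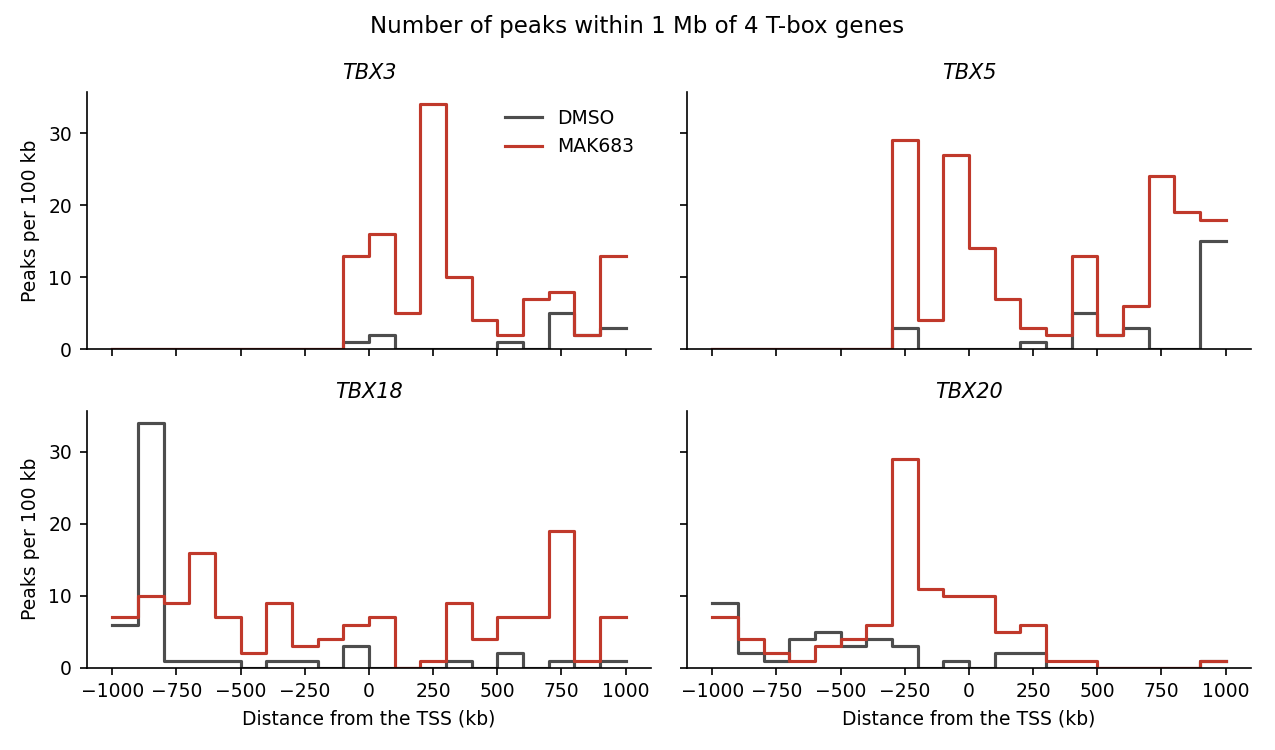
Number of peaks per 100 kb (y axis) within 1 Mb on either side of the TSS of TBX3, TBX5, TBX18 and TBX20 (x axis, kb, positive downstream), for DMSO (grey) and MAK683 (red). The MAK683 line runs above the DMSO line in the bins on both sides of each TSS, the tallest TBX3 bin has 34 MAK683 peaks and 0 DMSO peaks, and at TBX18 a bin near the left edge has 34 DMSO peaks against 10.

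Peak numbers also moved with base composition. Over tiles of 1 Mb in 5 equal groups, the ratio of MAK683 to DMSO peaks was 2.64 in the group of lowest GC content, then 2.1, 1.64, 1.55 and 1.05 in the group of highest GC. The flanks of TBX18 had 38.0% GC, in a group with a ratio of 2.1, and a ratio of their own of 5.38. The flanks of TBX20 had 40.1% GC, a group ratio of 1.64 and their own ratio of 4.93. For TBX3 the values were 43.7% GC, 1.55 and 36, where the 36 rests on 2 DMSO peaks, and for TBX5 they were 45.1% GC, 1.05 and 8.70. The flank ratios of these 4 genes were above that of their GC group. TBX15, with 39.1% GC, had a flank ratio of 4.20 beside a group ratio of 2.1, and the flanks of TBX1 and TBX6 had ratios of 0.827 and 0.816 beside 1.05. The peaks were called against a single background level for each library, so regional differences in coverage were not removed. The part of GC content and of regional coverage in the peak gains was not tested.

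The median height of regions shared by the libraries was lower in MAK683 in these surroundings. Within 1 Mb of TBX3 the 6 shared regions had a median log2 ratio of -0.32, and the values were -0.35 over 18 regions around TBX5, -0.26 over 23 around TBX18 and -0.28 over 18 around TBX20. The genome-wide median was -0.33. The share of shared regions that were higher in MAK683 was 33.3% around TBX3 and TBX5, 43.5% around TBX18 and 44.4% around TBX20, while over the genome 13784 of 57983 were higher.

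A feature that the rule did not use was CpG content. Over 6 kb centred on the TSS, the observed over expected CpG ratio was 0.773 for TBX18, 0.733 for TBX2, 0.667 for TBX4, 0.662 for TBX3, 0.636 for TBX20, 0.626 for TBX5, 0.621 for TBX15 and 0.607 for TBX1. TBX6 and TBX21 had 0.423 and 0.393, and the median of all coding genes was 0.445. Of the genes with equal peak numbers in both libraries, TBX4 stood above TBX3, TBX20 and TBX5 in this order. TBX6 and TBX21, also with equal numbers, stood lowest. The summit windows of 200 bp had a median ratio of 0.300 for the 77 MAK683 peaks and 0.444 for the 26 DMSO peaks, beside 0.207 and 0.242 over all peaks of each library. The T-box half-site AGGTGTGA, or its reverse complement TCACACCT, was in 0 of the 10 promoters over the 300 bp window from 250 bp upstream to 50 bp downstream, and in 0.972% of all coding promoters. It was in 1 of 26 DMSO and 0 of 77 MAK683 summit windows, beside 1.45% and 1.14% of all. These counts depend on where the summits lay. The DMSO peak with that window, at TBX6, held 0 half-sites between its own ends. The MAK683 peaks of TBX6 with summits 6311 and 3067 bp downstream of the TSS held 1 each. The share over all whole peaks was not computed.

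The rest of the family was read in the same way. Of 7 other T-box genes, TBXT, the regulator of early mesoderm known as brachyury, had no DMSO promoter peak and 16 tags in MAK683, with the summit 1900 bp downstream of its TSS. EOMES, a regulator of early mesendoderm and of the cortex, had 40 and 49 tags, a log2 ratio of 0.15 (-0.48 to 0.79). TBR1, a cortical regulator, had 44 and 43 tags and -0.17 (-0.81 to 0.47). MGA had 19 and 16 tags and -0.39 (-1.44 to 0.65), TBX10 had 18 and 13 tags and -0.61 (-1.76 to 0.50), and TBX19 and TBX22 had no promoter peak in either library. Among antisense genes, TBX18-AS1 had a peak of 8 tags within 3 kb of its start in MAK683 only, and TBX2-AS1 had 15 tags in both libraries. These peaks also belong to the TBX18 and TBX2 loci.

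Partners, upstream signals and targets of T-box factors were taken as a list of 24 genes. A promoter peak was found at 20 of them in DMSO and 22 in MAK683, 13 were higher and 10 lower, and the median log2 ratio was 0.30. Over all 20163 coding genes, 14660 had a promoter peak in DMSO and 15875 in MAK683. Of the 16247 with a peak in either library, 21.5% were higher, and the median was -0.42. In the list of 24, the genes past 2-fold with a counting interval that excluded no change were CDKN2A, which was higher, and FGF8, which was lower. Among all coding promoters with a peak in both libraries, 0.819% had an interval above 0 and 16.9% below. CDKN2A had 18 tags in DMSO and 41 in MAK683, a log2 ratio of 1.05 (0.22 to 1.94), and it is also named by the study as derepressed. FGF8, a growth factor of the limb and pharynx, had 36 and 17 tags, a log2 ratio of -1.22 (-2.15 to -0.35), where the DMSO summit lay 5141 bp upstream of the TSS and the peak only reached the window. FGF10, a limb bud growth factor downstream of TBX5 and TBX4, had no DMSO peak and 21 tags in MAK683. RIPPLY2, which acts with TBX6 in somites, had no DMSO promoter peak and a MAK683 peak of 15 tags. GJA5, a connexin of the heart, had 10 tags in MAK683 only, NPPA had 7 tags in DMSO only, and IFNG, a target of T-bet, had no promoter peak in either library. Of the 6 partners, 3 were higher and 3 lower, all with intervals that included 0. GATA4, HAND2 and MEF2C had log2 ratios of 0.86, 0.69 and 0.96. NKX2-5, GATA6 and HAND1 had -0.14, -0.44 and -0.06. GATA4 is also named by the study as derepressed.

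Some peaks lay close to the edges that the rule set. At TBX18, the MAK683 peak nearest to the edge on the inside had its summit 7 bp from the edge and had 9 tags, and the nearest outside lay 772 bp away with 21 tags, taller than any inside. The nearest DMSO peak to that locus lay 927 bp outside with 8 tags, so the count of 0 there depends on where the locus was ended. At TBX3, the nearest MAK683 peak outside lay 50 bp away with 10 tags and the nearest DMSO peak 1331 bp away with 15 tags. At TBX20 the nearest DMSO peak lay 4511 bp outside.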

How the data were processed

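The data were 2 ATAC-seq libraries of 150 bp paired reads, 1 per group, grouped by the treatment label. The study's methods name Trim-galore for trimming, Bowtie2 for alignment and hg19 as the build. The authors used MACS 2.1.1.20160309, per the file headers, on each library by itself, with no control, a shift of -100 bp, an extension to 200 bp, a q-value cutoff of 0.05 and no local background. The labels name MACS2 2.1.0 and 2.2.7.1. Of 23901891 and 26692938 tags, 1 was kept per position. The deposited pileup is a signal in whole tags, without scaling to the library total. Fold enrichment, also deposited, is a ratio to the background of the library. The −log10 q-value and −log10 p-value, as deposited, depend on depth. No p-value was used as a test.

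Heights were divided by tags after filtering. Genes came from GENCODE 44 lifted to GRCh37, with the TSS of the canonical transcript, and peaks on the main chromosomes were used. PECAM1, a marker of endothelium, was not in the annotation used. Overlap of at least 1 bp made peaks shared. Log2 ratios have exact conditional binomial intervals. Named were all 10 members by subfamily, 7 other T-box genes, antisense genes, and of 24 partner genes those past 2-fold whose interval excluded no change. GJA5, FGF10, RIPPLY2, NPPA, IFNG and the partners GATA4, HAND2, MEF2C, NKX2-5, GATA6 and HAND1 were named after their values were seen. In each locus, the tallest promoter peak of each library and the tallest peak found in a single library were named, and further peaks were named after their values were seen. Some items of these lists and sequences are not reported here. The members and lists were chosen with earlier results of these data known. Alternatives were stricter q-values, a common floor, other windows, TSSs, overlaps, scalings and centrings, and a minimum of 1 RPM. The interval, overlap and promoter code was tested on simulated data. Python 3.11.15, numpy 2.4.6, scipy 1.17.1 and matplotlib 3.10.9 were used.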

Additional observations from a re-analysis of the deposited data

How the results depend on the processing

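Of 161 values recomputed under alternatives, 129 stayed within their limits, 31 moved and 1 turned. A change of sign was recorded as a turn only for single promoters without a DMSO peak or with an interval that excluded 0. The median of the 10 promoters had wide limits, -0.59 to 1.92. Its change from -0.15 to 0.27 (centred on all promoters) or 0.18 (centred on shared regions) therefore counted as within limits. Centred on all promoters, TBX21 went from -0.38 to 0.04, also within its limits. The promoter of TBX18 had a log2 ratio of -0.045 when peaks needed a −log10 q of 10 or more, since that filter raised the floor above its height. It left TBX5 at 0.60 and TBX20 at 0.66, so 0 of the 10 promoters were at least 2-fold higher, and at 5 or more TBX5 was at 1.18, TBX20 at 1.24 and TBX18 at 0.54. Under the same filter the member loci held 12 DMSO peaks (6 shared) and 16 MAK683 peaks (8 shared) over 26725 bp, with 6 shared regions. At a −log10 q of at least 5 there were 12 shared DMSO peaks, 36 MAK683 peaks (15 shared) and 11 shared regions. Counting within 3 kb of the TSS alone gave 14 DMSO and 34 MAK683 peaks over 22131 bp. Requiring 50% of each peak to overlap left 9 shared peaks in either library, and summits at most 150 bp apart left 12. At 1 RPM or more, a limit chosen after seeing the data, 6 genes had a MAK683 promoter peak, and the loci held 9 DMSO peaks (5 shared) and 10 MAK683 peaks (5 shared) over 22383 bp, with 5 shared regions. Without replicates, none could be left out. No paired analysis was possible because each group had 1 library. The tallest peak of a member promoter had 45 tags, and at such tag numbers changes smaller than the intervals given were not detectable.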
